A study of Gossypium hirsutum with 6 samples.

Results

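The EXPA4 genes of upland cotton (*Gossypium hirsutum*) examined here are Gh_D09G1463, Gh_A09G1454, Gh_A07G0902 and Gh_A04G0707, 4 of the 65894 genes in the deposited table. They were chosen because the study lists them as EXPA4 among the cell wall organization genes that set the lines apart, so their difference between the lines is a description and was not tested. The study counts a further EXPA4 gene, which was not analysed here. The letters and digits after Gh_ give the subgenome and chromosome, so that the copies lie on D09, A09, A07 and A04 of the TM-1 genome. None of the 4 IDs has a match in RefSeq's genes for Gossypium_hirsutum_v2.1, so no start, end or sequence is given.

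Expansins are proteins of the plant cell wall that let a wall under turgor stretch without cutting its polymers. Alpha-expansins (EXPA) act at the acid pH of growing primary walls and form the largest group of the family. Cotton fibers are single cells of the outer ovule epidermis that bulge out and then elongate, and alpha-expansin genes are known to be active in them. Upland cotton is a tetraploid with an A and a D subgenome, so many genes exist as an A copy and a D copy.

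Xu142fl is the fiberless mutant Xuzhou142fl, and Xu142 is the wild type Xuzhou142 with fiber. Both were grown in the field, and the whole ovules sequenced held a mixture of the stages -3 and -1 days post anthesis (DPA), with 3 libraries of Xu142fl and 3 of Xu142. How much each stage gave to a library is not given in the sources used here, so a difference between the lines and a difference in the mixture cannot be told apart. In RNA of whole ovules, fewer cells of a type and less RNA per cell cannot be told apart either. Values are FPKM, sequenced fragments scaled by transcript length and by the mapped reads of the library, which can be compared between genes. Over all genes a library's FPKM added up to 804997 to 844877, and no read counts were analysed, so the depth behind a gene is unknown. MML3 on D12 (Gh_D12G1628), a MYB factor gene of fiber initials, had 0.18, 0.37 and 0.28 FPKM in Xu142fl and 61.5, 54.6 and 51.8 FPKM in Xu142, and the lines did not overlap. Its copy on A12 (Gh_A12G1503) fell less, from 44.37, 35.25 and 36.67 FPKM in Xu142 to 7.76, 6.96 and 8.34 FPKM in Xu142fl. MML4 on A12 (Gh_A12G1504), a related gene, was low in both lines, with means of 1.45 FPKM in Xu142 and 0.33 FPKM in Xu142fl. The summed FPKM of 20 DNA replication genes, which mark dividing cells, was 426 to 558 in Xu142fl and 225 to 241 in Xu142. The study chose these 20 genes on the same libraries, and their part in the EXPA4 values was not tested.

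The libraries of the mutant and the wild type did not overlap in any of the 4 EXPA4 genes, and Xu142fl was the lower line in each. Their summed FPKM was 101, 89.9 and 83.8 in Xu142fl replicates 1 to 3, against 224, 276 and 242 in Xu142 replicates 1 to 3. The sum averaged 91.5 ± 8.53 FPKM in Xu142fl and 247 ± 26.3 FPKM in Xu142 (SD, n = 3 each), 2.71-fold lower in the mutant. Of the 56395 genes whose mean reached 0.1 FPKM, 19.5% were likewise lower in Xu142fl with no overlap, 9.07% had a mean at least 2-fold lower and 6.54% met both limits. A further 15.6% were higher in Xu142fl with no overlap. All 4 EXPA4 genes met both limits for lower values, but the same contrast chose them and nothing is read from these counts.

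Gh_D09G1463 was the most abundant of them. It had 48.3, 44.8 and 37.1 FPKM in Xu142fl replicates 1 to 3, against 107.6, 148 and 122 FPKM in Xu142 replicates 1 to 3. The lines were far apart, since the lowest Xu142 library was 2.23 times the highest Xu142fl library. The mean was 2.90-fold lower in Xu142fl, and the log2 fold change was -1.53 (standard error 0.15 from limma) on the scale of log2(FPKM + 0.1).

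Gh_A09G1454, taken here as the A09 copy of the same gene from the shared name and chromosome number without a sequence check, had 25.3, 27.5 and 28.4 FPKM in Xu142fl and 61.6, 63.7 and 65.1 FPKM in Xu142. Within each line the 3 libraries nearly coincided. The mean was 2.34-fold lower in Xu142fl, and the log2 fold change was -1.23 (standard error 0.08).

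Gh_A07G0902 had 10.07, 10.01 and 9.84 FPKM in Xu142fl and 31.8, 30.3 and 28.9 FPKM in Xu142. The mean was 3.04-fold lower in Xu142fl, and the log2 fold change was -1.60 (standard error 0.08). It was close to the -1.53 of Gh_D09G1463, which had the lower value of the pair without Xu142 replicate 1 (-1.64 against -1.56) and without Xu142fl replicate 1 (-1.61 against -1.60). The gap between the lines was also the widest here, since the lowest Xu142 library was 2.87 times the highest Xu142fl library.

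Gh_A04G0707 had 17.1, 7.57 and 8.49 FPKM in Xu142fl and 23.0, 33.7 and 26.6 FPKM in Xu142. Its Xu142fl replicate 1 stood close to the wild type, and the lowest Xu142 library was only 1.35 times as high. The mean was 2.52-fold lower in Xu142fl, and the log2 fold change was -1.40 (standard error 0.31), or -1.76 without Xu142fl replicate 1 and -1.18 without Xu142fl replicate 2. Its place among the 4 genes by fold change therefore depended on the library left out. This standard error was the largest of the 4.

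**Figure D1:**
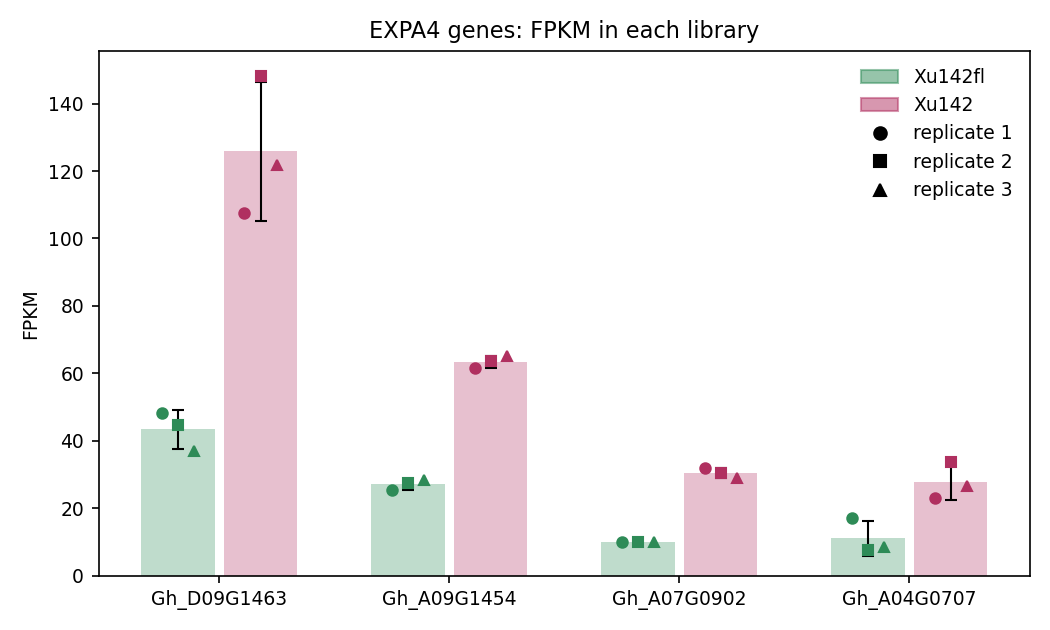
FPKM of the 4 EXPA4 genes in each library, with Xu142fl in green on the left and Xu142 in red on the right of each gene; bars are means, error bars SD (n = 3) and symbols the replicates. In all 4 genes the Xu142fl libraries lie below the Xu142 libraries, and the gap is narrowest in Gh_A04G0707, where Xu142fl replicate 1 has 17.1 FPKM.

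With limma fitted on all 56395 genes, Gh_A07G0902 and Gh_A09G1454 (2 of the 4) were called at least 2-fold lower with the adjusted p limited to 0.001, where 0.555% of all genes were. With the limit at 0.05 all 4 were called, against 4.47% of all genes. Gh_D09G1463 had a larger fold change than Gh_A09G1454 and a wider spread between libraries. These counts rest on the contrast that chose the genes and serve only to place them among all genes. The calls of Gh_A07G0902 and Gh_A09G1454 at 0.001, and that of Gh_A04G0707 at 0.05, were lost in every fit that left out 1 library except that without Xu142fl replicate 1, and with a replicate block. Without limma's intensity trend those of Gh_A09G1454 at 0.001 and Gh_A04G0707 at 0.05 were lost.

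In level, Gh_D09G1463 came first in the ovules of both lines and Gh_A09G1454 second. In Xu142fl, 94.5% of all genes had a lower mean than Gh_D09G1463 and 89.98% a lower mean than Gh_A09G1454. In Xu142 the corresponding shares were 98.8% and 96.7%. For Gh_A07G0902 they were 71.1% in Xu142fl and 91.3% in Xu142, and for Gh_A04G0707 they were 73.5% in Xu142fl and 90.2% in Xu142.

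The study listed the genes for their difference between the lines and not for their order of levels. The order was tested over the 6 libraries, in which all 4 genes are measured side by side. The genes were taken up with earlier results of these data known, so the p-values describe the order and are no independent support. Gh_D09G1463 exceeded Gh_A09G1454 in 6 of 6 libraries, by 0.82 ± 0.28 on the log2 scale (SD, n = 6; exact two-sided sign-flip permutation test, p = 0.0313, adjusted over 6 pairs of genes p = 0.0375). This is the smallest p that 6 libraries allow. Any pair with the same sign in all 6 libraries gets it, so it adds nothing to the count of 6 of 6. Gh_A09G1454 was above Gh_A07G0902 in 6 of 6 libraries, by 1.25 ± 0.22 on the log2 scale, and above Gh_A04G0707 in 6 of 6, by 1.29 ± 0.49, each with the same p-values. The last neighbours in the order did not differ beyond their spread. Gh_A07G0902 was above Gh_A04G0707 in 4 of 6 libraries, with a mean difference of 0.05 ± 0.45 on the log2 scale (exact two-sided sign-flip permutation test, p = 0.844, adjusted p = 0.844). With 3 libraries the test cannot give a p below 0.25, so the order was not tested within a line.

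In the split of the summed FPKM among the genes, the lines overlapped. Gh_D09G1463 held 47.9, 49.8 and 44.2% of the sum in Xu142fl replicates 1 to 3 and 48.0, 53.7 and 50.2% in Xu142 replicates 1 to 3. Gh_A09G1454 held 25.1, 30.6 and 33.9% in Xu142fl and 27.5, 23.1 and 26.9% in Xu142. The D09 and A09 copies together made up 77.2 ± 3.78% of the sum in Xu142fl and 76.5 ± 0.85% in Xu142 (SD, n = 3 each).

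The smaller shares were those of Gh_A07G0902, with 11.0 ± 0.88% in Xu142fl and 12.4 ± 1.65% in Xu142, and of Gh_A04G0707, with 11.8 ± 4.51% in Xu142fl and 11.2 ± 0.99% in Xu142 (SD, n = 3 each). In all 4 genes the shares overlapped between the lines. The mean share of Gh_A09G1454 was 4.08 percentage points higher in Xu142fl, and its SD among the Xu142fl libraries was 4.45 points. This difference was 6.46 points without Xu142fl replicate 1, 2.06 points without Xu142fl replicate 3 and 2.70 points without Xu142 replicate 2. Of the decrease in summed mean FPKM, Gh_D09G1463 accounted for 52.9%, Gh_A09G1454 for 23.3%, Gh_A07G0902 for 13.1% and Gh_A04G0707 for 10.7%. The share of a gene within a library does not depend on the scaling between libraries, but its part of the decrease does.

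**Figure D2:**
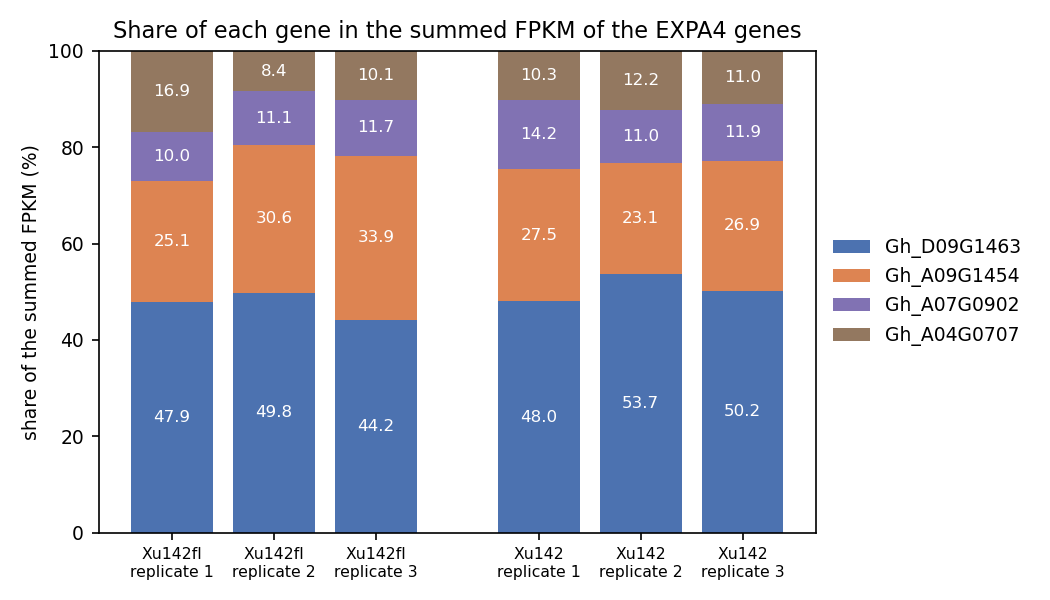
Share of each gene in the summed FPKM of the 4 EXPA4 genes (percent, vertical axis) in each library, Xu142fl on the left and Xu142 on the right. Gh_D09G1463 holds 44.2 to 49.8% in Xu142fl and 48.0 to 53.7% in Xu142, and Gh_A04G0707 reaches 16.9% in Xu142fl replicate 1.

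The balance of the copies on A09 and D09 was read from the ratio of their FPKM in each library. The D09 copy had 1.91, 1.63 and 1.30 times the FPKM of the A09 copy in Xu142fl replicates 1 to 3, and 1.75, 2.33 and 1.87 times in Xu142 replicates 1 to 3. On the log2 scale the ratio averaged 0.67 ± 0.28 in Xu142fl and 0.98 ± 0.22 in Xu142 (SD, n = 3 each). The difference of -0.30 had a standard error of 0.20, and the lines overlapped, so the difference was not beyond the spread between libraries. By contrast, the log2 ratio of the D12 to the A12 copy of MML3 (Gh_D12G1628 and Gh_A12G1503) averaged -4.85 ± 0.60 in Xu142fl and 0.53 ± 0.08 in Xu142. RSEM, the program that estimated expression, splits reads shared by near-identical copies, so each of these ratios is uncertain.

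Among the 6 pairs of EXPA4 genes, only the log2 ratio of Gh_A07G0902 to Gh_A09G1454 did not overlap between the lines. It was between -1.52 and -1.32 in Xu142fl and between -1.17 and -0.95 in Xu142, a difference of -0.37 equal to that between their log2 fold changes. It comes from the contrast that chose the genes and was not tested. How often the ratios of other pairs of genes separate the lines was not computed, so nothing is read from this count.

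The genes differed in how closely the libraries of a line agreed. In Xu142fl the coefficient of variation was 1.20% for Gh_A07G0902, 6.01% for Gh_A09G1454, 13.2% for Gh_D09G1463 and 47.4% for Gh_A04G0707. In Xu142 it was 4.76%, 2.79%, 16.4% and 19.6% in the same order of genes. Against the 29192 genes with a mean between 5 and 200 FPKM, Gh_A07G0902 was among the steadiest in Xu142fl, where 0.935% of the genes had a smaller SD of log2(FPKM + 0.1), and in Xu142 20.9% had. Gh_A04G0707 was among the most variable, and 96.8% of the genes in Xu142fl and 86.3% in Xu142 had a smaller SD.

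The deviations of Gh_A04G0707 and Gh_D09G1463 had the same sign in 5 of the 6 libraries. Deviations from the mean of a line add up to 0, so these signs depend on each other. How often other genes agree in this way was not computed. Xu142fl replicate 1 lay above the mean of its line by 0.72 in Gh_A04G0707 and by 0.16 in Gh_D09G1463 on the log2 scale, and Xu142 replicate 2 by 0.30 and 0.25. These are the libraries that stood apart within their lines over all genes, with a median absolute log2 deviation of 0.213 in Xu142fl replicate 1 (0.107 and 0.170 in Xu142fl replicates 2 and 3) and of 0.161 in Xu142 replicate 2 (0.121 and 0.0953 in Xu142 replicates 1 and 3). Over all genes their deviations from the line means correlated at 0.40, the highest among the 9 pairs of a Xu142fl with a Xu142 library. The median absolute log2 difference between them was 0.290. Xu142fl replicate 1 differed by 0.290 and 0.366 from Xu142fl replicates 2 and 3, and by 0.376 and 0.350 from Xu142 replicates 1 and 3. Xu142 replicate 2 was thus as near to it as Xu142fl replicate 2, while the other Xu142 libraries were further away. Xu142 replicate 2 differed by 0.266 and 0.234 from Xu142 replicates 1 and 3. In Xu142fl replicate 1 and Xu142 replicate 2, Gh_A07G0902 deviated by 0.01 and 0.00, and Gh_A09G1454 by -0.10 and 0.00. Without both libraries the log2 fold changes were -1.61 for Gh_A04G0707, -1.49 for Gh_D09G1463, -1.60 for Gh_A07G0902 and -1.18 for Gh_A09G1454.

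**Figure D3:**
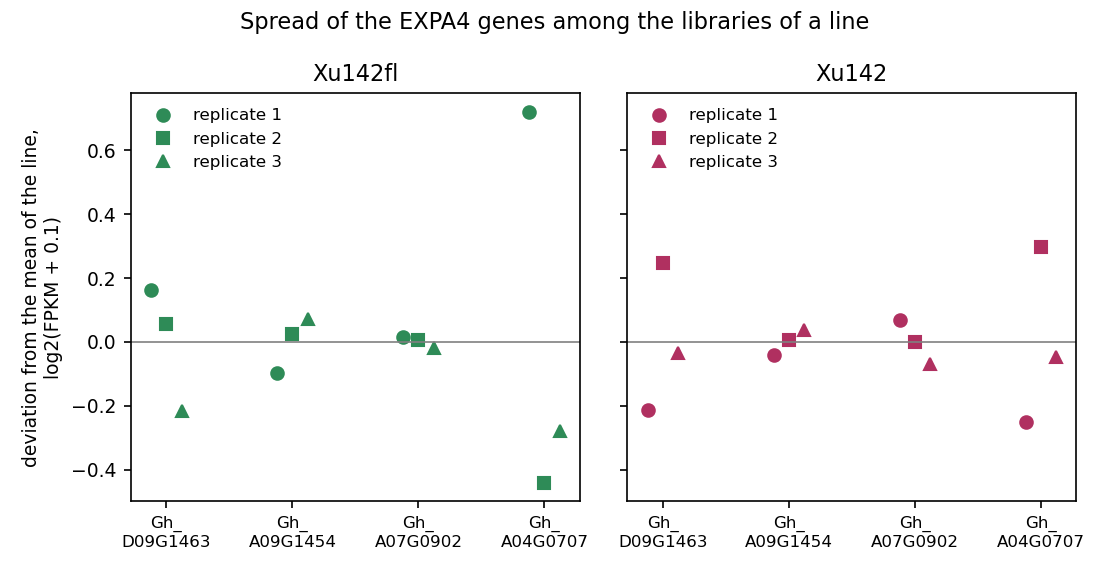
Deviation of each library from the mean of its line in log2(FPKM + 0.1) for the 4 EXPA4 genes, Xu142fl on the left and Xu142 on the right; symbols are the replicates. Gh_A07G0902 and Gh_A09G1454 stay near 0, while Gh_A04G0707 reaches 0.72 in Xu142fl replicate 1 and Gh_D09G1463 reaches 0.25 in Xu142 replicate 2.

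The cell wall genes that the study placed in the same group include 3 EXPA8 genes, further alpha-expansins, and a pectinesterase gene, whose product removes methyl groups from pectin. They were chosen on the same contrast. Gh_A05G3493, the EXPA8 gene with the largest fold change, had 3.08, 1.59 and 2.31 FPKM in Xu142fl and 10.9, 26.1 and 15.3 FPKM in Xu142. The summed FPKM of the EXPA8 genes was 12.7, 8.18 and 6.70 in Xu142fl and 21.0, 46.7 and 28.9 in Xu142. The EXPA4 sum was 10.5 ± 2.32 times the EXPA8 sum in Xu142fl and 8.33 ± 2.39 times in Xu142 (SD, n = 3 each), so EXPA4 transcripts outweighed those of EXPA8 in both lines. The EXPA8 log2 fold changes lay between -2.81 and -1.08, with a median of -1.15, a wider range than the -1.60 to -1.23 and median of -1.47 of the EXPA4 genes. The median over all genes tested was 0.01. The lines overlapped in 1 EXPA8 gene (Gh_D04G1924) and in no EXPA4 gene, and 19.5% of all genes tested were lower in Xu142fl with no overlap. Nothing is read from this count, since the same contrast chose both lists. The EXPA1 and EXPA15 genes that the study also placed in this group were not analysed here. The pectinesterase gene Gh_A10G1502 had 10.1 ± 2.37 FPKM in Xu142fl and 26.6 ± 6.68 FPKM in Xu142, near the levels of Gh_A07G0902 and Gh_A04G0707.

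Profiles were compared by the root mean square difference of log2(FPKM + 0.1) over the 6 libraries, after each gene had been centred on its own mean, among the 45566 genes whose mean reached 1 FPKM. The likeness includes the contrast that chose the EXPA4 genes. The nearest gene to Gh_D09G1463 was Gh_D02G0225, with a difference of 0.03, followed by Gh_D03G0026 and Gh_A12G1592 at up to 0.05. Gh_D02G0225 had 9.67, 8.53 and 7 FPKM in Xu142fl and 21.1, 28.7 and 23.5 FPKM in Xu142. Its highest library was Xu142 replicate 2, as in Gh_D09G1463. For Gh_A07G0902 the nearest were Gh_A07G1958, Gh_D06G0981 and Gh_A02G1453, at 0.05 to 0.06. For Gh_A09G1454 they were Gh_A09G1796, Gh_D08G1463 and Gh_A09G0950, likewise at 0.05 to 0.06. For Gh_A04G0707 no gene came closer than Gh_D12G1337 at 0.12, followed by Gh_D06G0667 and Gh_A08G2112 at up to 0.16. Gh_D12G1337 had 12.4, 6.10 and 6.61 FPKM in Xu142fl and 15.6, 24.3 and 16.6 FPKM in Xu142, so that Xu142fl replicate 1 was the highest of its line there too. The files and the RefSeq table give no name for these IDs.

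The EXPA4 genes were not each other's nearest. Gh_A07G0902 and Gh_D09G1463 differed by 0.19, with 173 genes nearer to Gh_A07G0902 and 121 nearer to Gh_D09G1463. The A09 and D09 copies differed by 0.25, with 1097 genes nearer to Gh_A09G1454 and 343 nearer to Gh_D09G1463. Of the expansins named here, the profile most like that of Gh_A04G0707 was the EXPA8 gene Gh_D04G1924 at 0.22, with 44 genes nearer.

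IDs are numbered along each chromosome, and the genes within 5 numbers of each EXPA4 gene had no part in its choice. Of the 33 of them that passed the filter on low FPKM, none had a log2 fold change of -1 or below, and the values ranged from -0.83 to 0.98. The upper end was Gh_A04G0706, a gene near the floor (standard error 0.87). It had 0.71, 0 and 0.23 FPKM in Xu142fl and 0.25, 0 and 0 FPKM in Xu142. In limma with Benjamini-Hochberg adjustment, 5 of the 33 (15.2%) passed an adjusted p limit of 0.05, 4 lower and 1 higher in Xu142fl, close to the 13.9% of all genes that passed. Of the 10 neighbours whose mean reached 10 FPKM, 4 were lower in Xu142fl with no overlap (Gh_A07G0900, Gh_D09G1458, Gh_A04G0705 and Gh_A04G0712), 2 were higher with no overlap (Gh_A09G1450 and Gh_A04G0708) and 4 overlapped (Gh_A07G0907, Gh_A09G1455, Gh_D09G1460 and Gh_D09G1464). The log2 fold changes of these 10 lay between -0.67 and 0.88. Of all 33 neighbours, 10 were lower and 5 higher in Xu142fl with no overlap. Of all genes tested, 19.5% were lower and 15.6% higher with no overlap. The most abundant, Gh_D09G1458, had 65.4, 67.1 and 72.1 FPKM in Xu142fl and 86.1, 81.7 and 82.1 FPKM in Xu142.

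The gene that followed Gh_A04G0707, Gh_A04G0708, was higher in Xu142fl. It had 40.0, 37.0 and 35.9 FPKM in Xu142fl and 19.8, 20.9 and 20.5 FPKM in Xu142, and the lines did not overlap. Its log2 fold change was 0.88 (standard error 0.08, limma adjusted p = 0.00128, and 0.00117 to 0.0219 over the alternatives). Its libraries lay close together within each line, unlike those of Gh_A04G0707. On chromosomes A09 and D09, the genes that followed the EXPA4 copies had like levels, with 17.5, 26.9 and 31.1 FPKM for Gh_A09G1455 and 20.4, 25.6 and 31.5 FPKM for Gh_D09G1464 in Xu142fl. In Xu142, Gh_A09G1455 had 19.2, 17.0 and 19.3 FPKM and Gh_D09G1464 had 21.8, 18.3 and 21.7 FPKM. In both of these genes the lines overlapped.

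**Figure D4:**
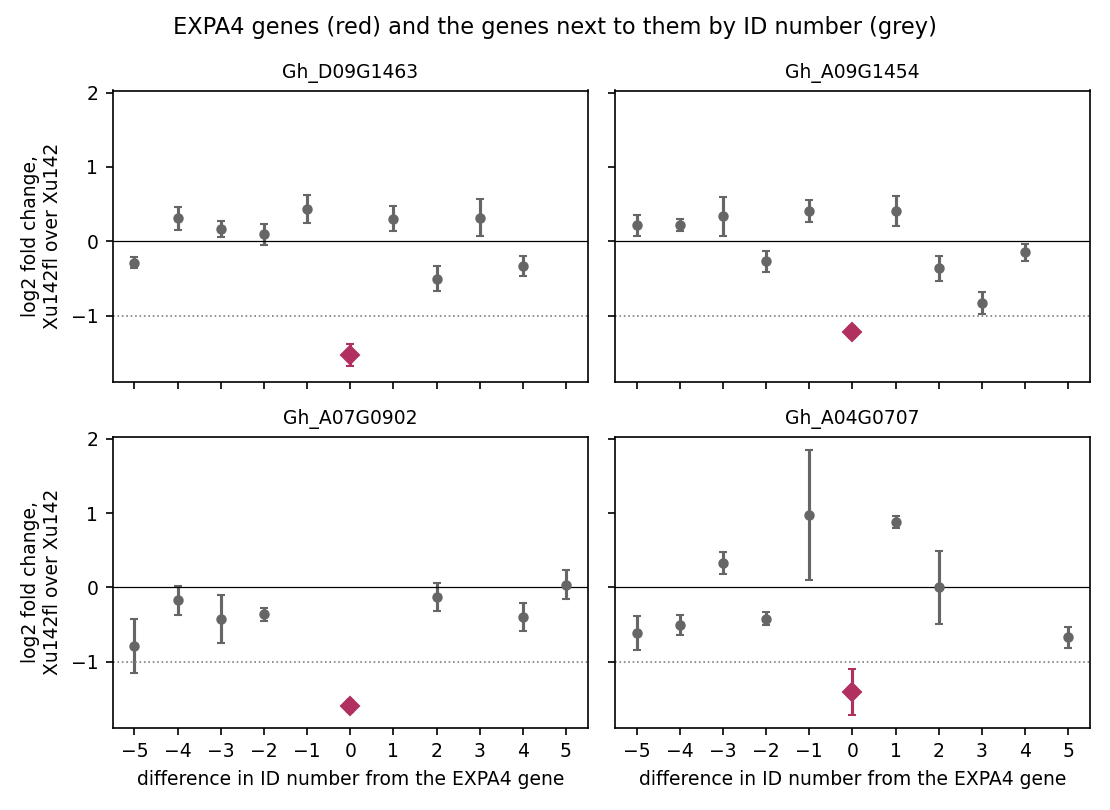
Log2 fold change, Xu142fl over Xu142, with its standard error from limma (vertical axis), of each EXPA4 gene (red diamond at 0) and of the genes within 5 ID numbers (grey points; horizontal axis, difference in ID number). Each EXPA4 gene lies below -1, marked by the dotted line, and the 33 neighbours lie between -0.83 and 0.98. The highest neighbour, Gh_A04G0706, is near the floor and has a standard error of 0.87.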

How the data were processed

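RNA of ovules was sequenced on BGI-SEQ500 and filtered reads were aligned to the genome of TM-1. For known genes the authors used Bowtie2, and for new transcripts HISAT2 (2.1.0 in the submitters' processing notes) with StringTie. Expression was then estimated with RSEM as FPKM, which the authors deposited with 2 decimals; scaling between libraries is not given in the sources used here. Since RSEM splits shared reads, the values of near-identical copies are uncertain. The 6 columns were matched to the libraries by name. Depth per gene is unknown, so errors are between libraries. The study describes these as biological replicates.

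Values were analysed as log2(FPKM + 0.1) with limma 3.58.1 in R 4.3.3 (intensity trend, Benjamini-Hochberg adjustment) over the 56395 genes whose mean reached 0.1 FPKM. A fold change on this scale understates that of low genes. DEGseq, which the study used, needs read counts and was not run. The limma step and the comparison of profiles were run on simulated data only to check that the code works. In the first, all genes had the same SD and the changed genes a larger fold change than the EXPA4 genes. In the second, a near copy of each EXPA4 profile was planted and sought. Neither tells how well the steps do on the EXPA4 genes. Python 3.11.15, pandas 2.3.3, numpy 2.4.6 and matplotlib 3.10.9 were used. Genes were named as the 4 EXPA4 genes, the lists given, the 3 nearest profiles of each and the neighbours by ID number of at least 10 FPKM, and of the last 2 groups only some are printed, with the rest as ranges. The EXPA4 genes and lists were chosen with earlier results of these data known. Alternatives were other pseudocounts (1 and 0.01), filters, scalings, variance estimates, a block for replicate number and leaving out each library; the removal of Xu142fl replicate 1 with Xu142 replicate 2 was added after seeing the data.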

Additional observations from a re-analysis of the deposited data

How the results depend on the processing

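The log2 fold changes of the 4 EXPA4 genes were negative and at least 2-fold in all 68 values under the alternatives. Leaving out 1 library gave -1.63 to -1.56 for Gh_A07G0902, -1.26 to -1.18 for Gh_A09G1454, -1.64 to -1.41 for Gh_D09G1463 and -1.76 to -1.18 for Gh_A04G0707. Only that of Gh_A07G0902 with a pseudocount of 1 (-1.51) moved by more than the spread between libraries.

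The count of genes called over the whole table was less stable. With a fold change of at least 2 and an adjusted p limited to 0.001 it was 423 genes, and 37 without Xu142 replicate 3 to 273 without Xu142fl replicate 1. It was 151 without Xu142fl replicate 1 and Xu142 replicate 2. At 0.05 it was 3463 genes, 1915 with a pseudocount of 1, 4662 without both of these libraries, and 1936 to 4609 with 1 library left out. With a replicate block 2 genes were called at 0.001 and 2048 at 0.05. The labels do not say that equal numbers share anything. Over genes, the deviations of same-numbered libraries correlated at -0.25, -0.23 and 0.14, against 0.40 for Xu142fl replicate 1 with Xu142 replicate 2. The deviations are taken from means of 3 libraries, so these correlations depend on each other. Whether same-numbered libraries share more than a number was not tested.

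In the order of levels, 5 pairs of genes passed at 0.05 and 0 did without 1 library or without Xu142fl replicate 1 and Xu142 replicate 2, where the fewer libraries cannot give a p below 0.05. The mean difference of Gh_A07G0902 and Gh_A04G0707, near 0, changed sign without Xu142fl replicate 2 (adjusted p = 0.938) and without Xu142 replicate 1 (adjusted p = 0.875, exact sign-flip permutation test). Without Xu142fl replicate 1 and Xu142 replicate 2 its exact adjusted p was 0.125. The copy balance of A09 and D09 differed by -0.43 to -0.16 with 1 library left out. The shares then differed by -1.88 to 2.38 points for Gh_A04G0707, 2.06 to 6.46 for Gh_A09G1454, -4.66 to -1.78 for Gh_D09G1463 and -2.11 to -0.50 for Gh_A07G0902.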
